A study of Capra hircus with 90 samples.

Results

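DENND5A, RAB12 and MAP1LC3A are 3 genes of membrane traffic and autophagy among the 25144 genes counted in goat brainstem. They were chosen because the authors' deposited tables list them as lower after 24 h of 6% inspired CO2. DENND5A (ENSCHIG00000013301) and RAB12 (ENSCHIG00000016103) are listed at the ventral respiratory column (VRC) and MAP1LC3A (ENSCHIG00000022203) at the nucleus of the solitary tract (NTS). The change at 24 h at those sites is therefore a description of why they were chosen and was given no test. All 3 were found among the 238 gene symbols that could be linked to a row of the count table.

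RAB proteins are small GTPases that mark the membranes of transport vesicles and endosomes, and DENN-domain proteins switch them on by exchanging GDP for GTP. DENND5A is a DENN-domain protein that binds RAB6 and activates RAB39. RAB12 directs cargo such as the transferrin receptor from recycling endosomes to lysosomes and is a substrate of the kinase LRRK2. MAP1LC3A is a member of the ATG8 family, the ubiquitin-like proteins that are joined to lipid on the forming autophagosome and draw in cargo for breakdown by the lysosome. Neurons and oligodendrocytes both depend on such traffic, because they move membrane and protein over long processes.

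The animals were adult outbred female goats in 5 groups of 6, which breathed 6% CO2 for 3 h, 6% CO2 for 24 h, room air for 24 h, 6% CO2 for 7 d, or room air for 7 d. Each goat gave a punch of frozen tissue at 3 sites: the NTS at 0 to 2 mm rostral to the obex, the VRC at 2 to 4 mm, and the retrotrapezoid nucleus (RTN) at 8 to 10 mm. With 6 libraries for each of 15 groups, 90 libraries were counted. The 3 h and 24 h groups belong to the first batch of extraction and sequencing and both 7 d groups to the second. Per the study's design, the baseline of the 3 h goats is the 24 h room-air group, so the time spent in the chamber differs in that comparison.

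Levels are given as CPM, counts scaled to the library total after TMM normalisation. Library totals lay between 5.46 M and 36.8 M counts with a median of 23.3 M, and 2 libraries held under 10 M. The 3 genes were well covered, with at least 1387 counts of DENND5A, 40 of RAB12 and 856 of MAP1LC3A in every library. Among first-batch NTS libraries, 5 stood apart on principal component 1 (21.2% of variance), namely goats 5 and 6 after 3 h of CO2, goat 5 after 24 h of CO2, and goats 5 and 6 of room air. In those 5 libraries DENND5A lay at 129.1 to 204 CPM, against 192.8 to 378.3 CPM in the other 13, and MAP1LC3A at 149.7 to 253.1 CPM, against 95.2 to 184.1 CPM. A punch holds many cell types, so fewer cells of a type and less RNA per cell cannot be told apart. Of the neuronal markers listed only PRPH carried a linked symbol, and it was detected in every library. In 7 d room air PRPH ranged from 25.6 to 726.7 CPM in the RTN and from 4.48 to 6.87 CPM in the VRC. In the NTS of 7 d room air it ranged from 2.92 to 122.5 CPM. No astrocyte marker was linked, and the site labels were not otherwise checked against markers. The library kit does not mark strand, so reads of a gene and of any antisense partner were counted together.

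DENND5A was lower in the VRC of goats after 24 h of CO2 than in 24 h room air. After 24 h of CO2 the 6 VRC libraries held 239.9, 254.8, 250.8, 252.8, 227.6 and 246.4 CPM of DENND5A, against 377.3, 376.3, 408.5, 443.5, 306.9 and 300.9 CPM in room air. Every CO2 library was below every room-air library. The means were 245.4 ± 10.2 CPM after 24 h of CO2 and 368.9 ± 56.1 CPM in room air (SD, n = 6 each), a log2 change of -0.59 (SE 0.09) and a difference of -33.5%. The spread was narrow in the CO2 goats and wide in the room-air goats.

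RAB12 differed in the same libraries by a larger factor. After 24 h of CO2 the VRC held 10.3, 13.6, 13.8, 7.29, 7.45 and 10.8 CPM of RAB12, against 23.1, 25.5, 26.3, 28.3, 23.3 and 22.0 CPM in room air. These groups did not overlap either. The means were 10.5 ± 2.83 CPM after 24 h of CO2 and 24.8 ± 2.38 CPM in room air (SD, n = 6 each), a log2 change of -1.20 (SE 0.21) and a difference of -57.4%. In this comparison 1.47% of the 15424 genes tested had all CO2 libraries below all room-air libraries, and edgeR called 0.726% lower. In the authors' deposited table, whose lower entries make up 0.536% of the genes, DENND5A stands at rank 15 and RAB12 at rank 18 of 115 by p. That table gives log2 changes of -0.59 and -1.22 with FDR values of 0.0050 for each, and it lists no change smaller than 0.50.

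After 3 h of CO2 both genes already lay mostly below the same VRC room-air libraries. DENND5A held 229.1, 293.2, 310.3, 245.7, 253.7 and 266.9 CPM after 3 h of CO2, and 5 of these 6 were below the lowest room-air library. RAB12 held 9.22, 11.2, 25.0, 9.93, 9.79 and 11.9 CPM, and again 5 of 6 were below the lowest room-air library. The exception was library 3 in each case. The log2 changes at 3 h were -0.47 for DENND5A (SE 0.09) and -0.93 for RAB12 (SE 0.20), given with no test because they use the room-air libraries on which the genes were chosen. Without library 3 the change of RAB12 was -1.24.

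The VRC of 24 h room air had the highest mean of the 15 groups for both DENND5A and RAB12. These libraries are the baseline on which both genes were chosen, so their height is a description and the shares of genes below are given with no reading. For DENND5A 10 of the 14 other groups lay wholly below its lowest library, and for RAB12 9 of 14. In 24 h room air of the same batch the VRC, at 368.9 CPM of DENND5A, lay wholly above the NTS, at 222.1 ± 44.4 CPM, and the RTN, at 238.1 ± 7.05 CPM. RAB12, at 24.8 CPM in the VRC, likewise lay wholly above its 14.0 ± 3.53 CPM in the NTS and 12.8 ± 1.40 CPM in the RTN. Of the 17730 genes kept, 2.19% lay wholly higher in the VRC than in the NTS and 1.99% wholly higher than in the RTN. In the VRC of 7 d room air DENND5A averaged 246.8 ± 19.96 CPM and RAB12 8.81 ± 2.26 CPM, and no library of that group reached the lowest of 24 h room air. The difference of 7 d from 24 h room air was -33.1% for DENND5A and -64.4% for RAB12, where 1.72% of genes were wholly lower, and here batch and time cannot be told apart. After 24 h of CO2 the VRC means, 245.4 and 10.5 CPM, lay near those of 7 d room air.

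**Figure D1:**
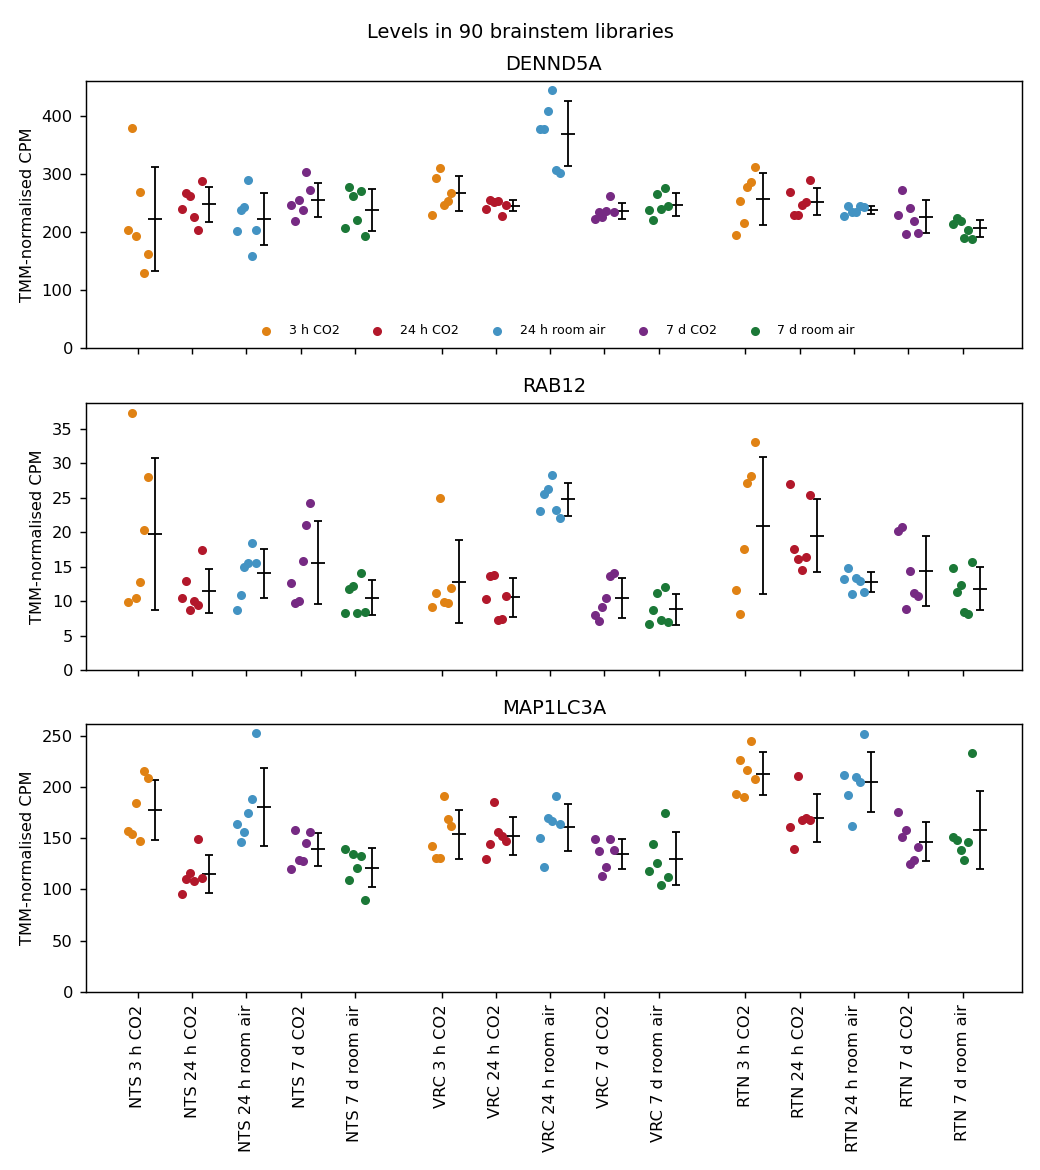
TMM-normalised CPM (y axis, from 0) of DENND5A, RAB12 and MAP1LC3A in each of 90 libraries by site and exposure (x axis), with the mean and SD of each group of 6 beside its points. The 24 h room-air VRC libraries lie at 300.9 to 443.5 CPM of DENND5A and 22.0 to 28.3 CPM of RAB12, and MAP1LC3A has its lowest group mean in the NTS after 24 h of CO2, at 115.0 CPM.

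MAP1LC3A was lower in the NTS after 24 h of CO2. There it held 95.2, 110.4, 115.9, 107.8, 149.7 and 111.2 CPM after 24 h of CO2, against 164.1, 146.7, 156.4, 174.8, 188.0 and 253.1 CPM in room air. All CO2 libraries but number 5 lay below the lowest room-air library, and number 5 is among those that stood apart. The means were 115.0 ± 18.4 CPM after 24 h of CO2 and 180.5 ± 38.4 CPM in room air (SD, n = 6 each), a log2 change of -0.64 (SE 0.14). Without the 5 libraries that stood apart the change was -0.57. The neuronal marker PRPH, an intermediate filament of peripherally projecting neurons, ranged from 1.91 to 35.3 CPM after 24 h of CO2 and from 3.59 to 570.5 CPM in room air in the same NTS libraries. The medians of PRPH lay closer, at 3.04 CPM after 24 h of CO2 and 5.08 CPM in room air. The part of such neurons in the change of MAP1LC3A was not tested. In the authors' deposited table MAP1LC3A has the lowest p of 180 entries, with a log2 change of -0.65 and an FDR of 0.0086, where lower entries make up 0.874% of the genes.

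At 3 h the NTS showed no such difference in MAP1LC3A. The libraries held 157.4, 153.8, 184.1, 147.3, 215.6 and 208.6 CPM after 3 h of CO2, a mean of 177.8 ± 29.5 CPM, against 180.5 ± 38.4 CPM in the shared room-air libraries. The log2 change was -0.01 (SE 0.14). At 7 d the NTS held 139.4 ± 16.1 CPM after CO2 and 121.2 ± 18.8 CPM in room air (SD, n = 6 each). That 7 d room-air group, of the second batch, lay wholly below the NTS libraries of 24 h room air, as did 0.671% of genes, and its mean lay near that after 24 h of CO2.

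CO2 was then compared with room air where the choice of genes had used neither group, which gave 21 tests by edgeR's quasi-likelihood test with Benjamini-Hochberg adjustment over all genes. None of the 21 passed an adjusted p of 0.05, and 4 had an unadjusted p under 0.05. The share of all genes called was 0% at the NTS at 3 h and 24 h, 0.00653% at the NTS at 7 d, 0.0130% at the VRC at 3 h, 0.817% at the VRC at 24 h, 0% at the VRC at 7 d, 0.0129% at the RTN at 3 h, and 0% at the RTN at 24 h and 7 d. So few calls were made at most sites that a member without a call did not differ in that from nearly all genes. Under other tests, scalings and filters, including DESeq2 and voom, the lowest adjusted p of a member was 0.322, and without any single library it was 0.192.

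RAB12 had a log2 change above 0 in 6 of its 7 tests, the opposite sign from the VRC at 24 h. In the RTN it averaged 21.0 ± 9.99 CPM after 3 h of CO2 and 12.8 ± 1.40 CPM in room air, a log2 change of 0.72 (SE 0.27, adjusted p = 0.595). After 24 h of CO2 it averaged 19.5 ± 5.30 CPM in the RTN, a change of 0.61 against the same room-air libraries (SE 0.27, adjusted p = 0.741). Of the 6 RTN libraries 4 lay above the highest room-air library after 3 h and 5 after 24 h. In the NTS at 7 d RAB12 averaged 15.6 ± 6.00 CPM after CO2 and 10.5 ± 2.52 CPM in room air, a change of 0.57 (SE 0.24, adjusted p = 0.599). In the NTS at 3 h the values were 19.8 ± 11.03 CPM after CO2 and 14.0 ± 3.53 CPM in room air, a change of 0.52 (SE 0.29, adjusted p = 0.773) that was 0.24 without library 2. At 7 d the VRC had a change of 0.24 (SE 0.20, adjusted p = 0.821) and the RTN one of 0.28 (SE 0.23, adjusted p = 0.999). The change at the NTS at 24 h was -0.28 (SE 0.30, adjusted p = 0.758), and -0.0811 without the 5 libraries that stood apart. These 6 values above 0 are not independent of each other. The RTN tests at 3 h and 24 h share room-air libraries. Values of the same time at different sites come from the same goats.

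DENND5A stayed near its room-air level in its 7 tests, with log2 changes of -0.06 to 0.17 and adjusted p values of 0.795 to 0.999. The 95% intervals were widest in the NTS of the first batch, from -0.40 to 0.43 at 3 h and from -0.25 to 0.58 at 24 h. The 24 h change there was 0.17, and 0.0817 without the 5 libraries that stood apart. In the VRC at 7 d the interval was -0.22 to 0.10. The VRC held 235.8 ± 13.9 CPM after 7 d of CO2 and 246.8 ± 19.96 CPM in room air.

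MAP1LC3A had its largest tested change in the RTN at 24 h, where it averaged 169.7 ± 23.1 CPM after CO2 and 205.4 ± 29.4 CPM in room air, a log2 change of -0.27 (SE 0.10, adjusted p = 0.661). Its other tested changes lay between -0.11 and 0.20. In the VRC its log2 changes lay between -0.07 and 0.05.

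**Figure D2:**
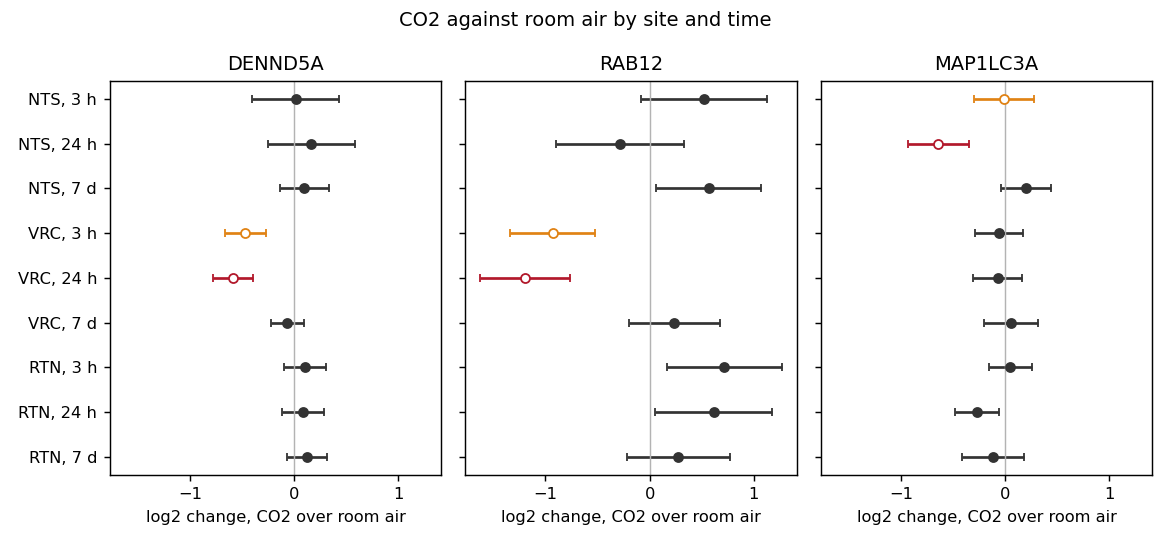
Log2 change of CO2 over room air (x axis) with its 95% interval for each gene at each site and time (y axis). Filled points are tests the choice of genes did not use. Open red points are the comparisons that chose the gene and open orange points share their room-air libraries, and DENND5A and RAB12 lie below 0 only in the VRC at 3 h and 24 h with an interval that leaves out 0.

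Levels between sites were tested in the 7 d room-air goats, whose libraries played no part in the choice. The main fit had no term for the goat, although each goat gave all 3 punches. No difference of the 3 genes passed 0.05, while edgeR called 8.72% of genes between NTS and VRC, 8.27% between NTS and RTN and 4.52% between VRC and RTN. DENND5A averaged 246.8 ± 19.96 CPM in the VRC and 206.4 ± 14.9 CPM in the RTN, a log2 difference of 0.26 (SE 0.10, adjusted p = 0.140). MAP1LC3A averaged 121.2 ± 18.8 CPM in the NTS and 157.8 ± 38.0 CPM in the RTN, a difference of -0.39 (SE 0.15, adjusted p = 0.121). RAB12 averaged 8.81 ± 2.26 CPM in the VRC and 11.8 ± 3.12 CPM in the RTN, a difference of -0.41 (SE 0.20, adjusted p = 0.277). With the goat as a replicate block the lowest adjusted p among these genes was 0.0566, for DENND5A between VRC and RTN. The calls over all genes were then 2625, 2371 and 1979 against 1359, 1289 and 704 without the block. Whether the effect of 7 d of CO2 differed between sites was tested with an interaction term, with adjusted p values of 0.929 for DENND5A, 0.958 for RAB12 and 0.929 for MAP1LC3A, where edgeR called 0% of 16050 genes and 761 had an unadjusted p under 0.05. With the goat as a replicate block this test called 10 genes, and the lowest adjusted p of the 3 genes was 0.578.

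Across the 15 groups the means of DENND5A ran from 368.9 CPM in the VRC of 24 h room air to 206.4 CPM in the RTN of 7 d room air, a ratio of 1.79. RAB12 ran over a ratio of 2.81, from 24.8 CPM to 8.81 CPM, and both ends were VRC room air, of 24 h and of 7 d. MAP1LC3A ran over a ratio of 1.86, from 213.3 ± 20.8 CPM in the RTN after 3 h of CO2 to 115.0 CPM in the NTS after 24 h of CO2. In the order of each gene all 14 pairs of neighbouring groups overlapped. The 6 highest MAP1LC3A means were all first-batch groups, led by RTN after 3 h of CO2, RTN of 24 h room air and NTS of 24 h room air. The lowest mean was of the first batch too. MAP1LC3A in 7 d room air differed from 24 h room air by -32.85% (NTS), -19.13% (VRC) and -23.2% (RTN), where batch and time cannot be told apart.

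DENND5A and RAB12 also varied together among goats of the same group. Each library's log2 CPM was taken minus its group mean, which removes the differences that chose the genes, and the 30 goats of a site were tested by shuffling within groups (100000 resamples, 2-sided, 9 relations). In the VRC r was 0.584 (permutation p = 4e-05, adjusted p = 0.00036) and Spearman's rho 0.614 (permutation p = 0.00013, adjusted p = 0.00117). In the RTN r was 0.66 (permutation p = 0.00512, adjusted p = 0.023) and rho 0.721 (permutation p = 0.00064, adjusted p = 0.00288). Without the 2 libraries farthest from the median of DENND5A r was 0.62 in the VRC and 0.561 in the RTN. Within the first batch r was 0.572 at the VRC and 0.677 at the RTN, and within the second it was 0.656 and 0.63. Only 0.288% of all genes in the VRC and 0.299% in the RTN had an r with DENND5A at least that high.

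In the NTS the relation did not pass, at r = 0.318 (permutation p = 0.244, adjusted p = 0.419) and rho = 0.265 (permutation p = 0.227, adjusted p = 0.357). There r was 0.193 without the 2 farthest libraries, 0.199 in the first batch and 0.757 in the second. Without the 5 libraries that stood apart, in which DENND5A was low, r was 0.847 over 25 goats. Without library 2 of the 3 h goats, the highest in both genes, it was 0.0572. No relation of MAP1LC3A with either gene passed: all 6 had r between -0.375 and 0.222 and adjusted p values of 0.209 to 0.821.

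**Figure D3:**
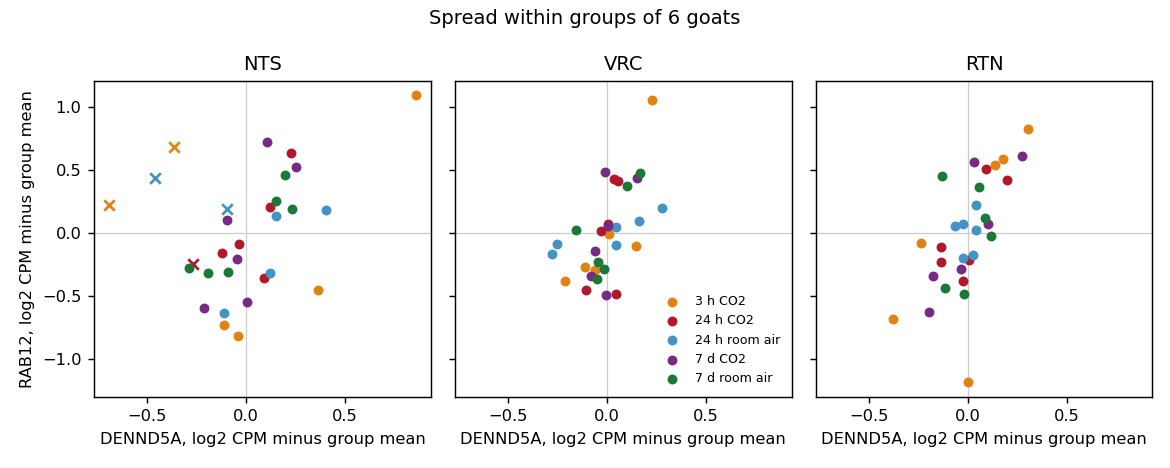
Log2 CPM of DENND5A (x axis) and RAB12 (y axis) in each library minus the mean of its group, by site and exposure. Crosses are the 5 NTS libraries that stood apart. The points run upward together in the VRC (r = 0.584) and RTN (r = 0.66). In the NTS the crosses all lie at DENND5A values below their group means, as do some other libraries.

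OLIG1 and OLIG2, transcription factors of the oligodendrocyte lineage, were the 2 of 12 listed oligodendrocyte markers that carried a linked symbol, and the authors had selected both on these libraries. In the VRC their summed level ranged from 21.4 to 45.6 CPM after 24 h of CO2, against 96.0 to 145.9 CPM in 24 h room air. After 3 h of CO2 it ranged from 17.1 to 135.3 CPM there, and the highest value was in library 3, the same that was high in RAB12. In the RTN the sum ranged from 33.2 to 123.3 CPM after 3 h of CO2 and from 60.7 to 99.6 CPM after 24 h of CO2, against 26.2 to 69.2 CPM in room air. OLIG1 and OLIG2 had log2 changes of 0.97 and 0.95 in the RTN at 3 h and of 0.85 and 0.84 at 24 h. None of these passed by edgeR (adjusted p = 0.346 to 0.671). Beside them the changes in the RTN at 3 h and 24 h were 0.72 and 0.61 for RAB12 and 0.10 and 0.09 for DENND5A. In the NTS the sum ranged from 24.6 to 106.4 CPM after 24 h of CO2, against 28.5 to 66.0 CPM in room air. The log2 changes there were 0.09 for OLIG1 and 0.07 for OLIG2, beside -0.28 for RAB12 and 0.17 for DENND5A. In the VRC of 7 d the range was 13.7 to 75.3 CPM after CO2 and 13.5 to 47.3 CPM in room air. Over the 15 group means r between the mean log2 CPM of OLIG1 and OLIG2 and that of RAB12 was 0.948, a description of groups that share libraries with the choice.

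The markers were therefore set against each gene within groups, a comparison added after the data were seen, over 54 relations of 6 marker lists, 3 genes and 3 sites. RAB12 followed OLIG1 and OLIG2 at every site. In the VRC r was 0.787 and rho 0.771 (permutation p = 1e-05 and 2e-05, adjusted p = 0.00027 and 0.00054), where 1e-05 is the smallest that these resamples can give. In the RTN r was 0.839 and rho 0.867 (permutation p = 1e-05 each, adjusted p = 0.00027 and 0.00054). In the NTS r was 0.608 and rho 0.539 (permutation p = 0.00054 and 0.00453, adjusted p = 0.00729 and 0.0408). Within the first batch r was 0.761 at the VRC, 0.835 at the RTN and 0.553 at the NTS. Within the second batch it was 0.832, 0.899 and 0.731 at the same sites. Without the 2 libraries farthest from the marker median r stayed at 0.698 (VRC), 0.808 (RTN) and 0.529 (NTS). Other genes varied with RAB12 too, measured here over the 3 sites pooled and not site by site. Within groups over the 90 libraries, 268 of the 17729 genes compared had an r of 0.5 or more with RAB12. Among them were ZDHHC2 at 0.847 and AKT1 at 0.8545. Whether these genes follow OLIG1 and OLIG2 themselves was not tested.

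DENND5A followed the same markers. In the NTS r was 0.66 and rho 0.744 (permutation p = 0.00018 and 5e-05, adjusted p = 0.00324 and 0.0009). In the VRC r was 0.52 and rho 0.572 (permutation p = 0.00135 and 0.0012, adjusted p = 0.0121 and 0.0136). In the RTN r was 0.63 and rho 0.618 (permutation p = 0.00183 and 0.00126, adjusted p = 0.0141 and 0.0136). Within the first batch r was 0.674 at the NTS, 0.599 at the VRC and 0.687 at the RTN. Within the second batch it was 0.871, 0.45 and 0.607 at the same sites. Without the 2 farthest libraries r stayed at 0.608 (NTS), 0.497 (VRC) and 0.503 (RTN). Within groups over the 90 libraries, 208 of the 17729 genes compared had an r of 0.5 or more with DENND5A. With the markers regressed out, DENND5A and RAB12 had an r of 0.331 at the VRC, 0.311 at the RTN and -0.14 at the NTS. These values are a description with no test. The part of oligodendrocyte lineage cells in the VRC difference between CO2 and room air was not tested.

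No relation of MAP1LC3A with OLIG1 and OLIG2 passed, with r of -0.03 (NTS), -0.18 (VRC) and 0.27 (RTN) and adjusted p values of 0.477 to 0.971. In the NTS it followed PRPH instead, with r = 0.626 and rho = 0.538 (permutation p = 0.00112 and 0.0059, adjusted p = 0.0121 and 0.0455). That relation had r of 0.826 in the first batch and 0.147 in the second, 0.558 without the 2 farthest libraries and 0.292 without the 5 libraries that stood apart. Within NTS groups MAP1LC3A also varied with the TMM factor of the library (r = 0.582) and the number of genes detected (0.37), given with no test. DENND5A ran against PRPH in the NTS, with r = -0.603 (permutation p = 0.00699, adjusted p = 0.0472) and rho = -0.514 (permutation p = 0.0144, adjusted p = 0.0778). Its r was -0.686 in the first batch and -0.311 in the second, -0.471 without the 2 farthest libraries and -0.318 without the 5 that stood apart. DENND5A there had an r of -0.307 with the TMM factor and -0.451 with the number of genes detected, again with no test. At the other sites DENND5A rose with PRPH instead, and neither relation passed. There r was 0.368 in the VRC (permutation p = 0.0129, adjusted p = 0.0696) and 0.481 in the RTN (permutation p = 0.0106, adjusted p = 0.0637). Of the 54 relations 8 passed 0.05, and 6 of the 8 were of OLIG1 and OLIG2. The linked markers of myeloid cells, endothelium, choroid plexus and blood gave none.

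**Figure D4:**
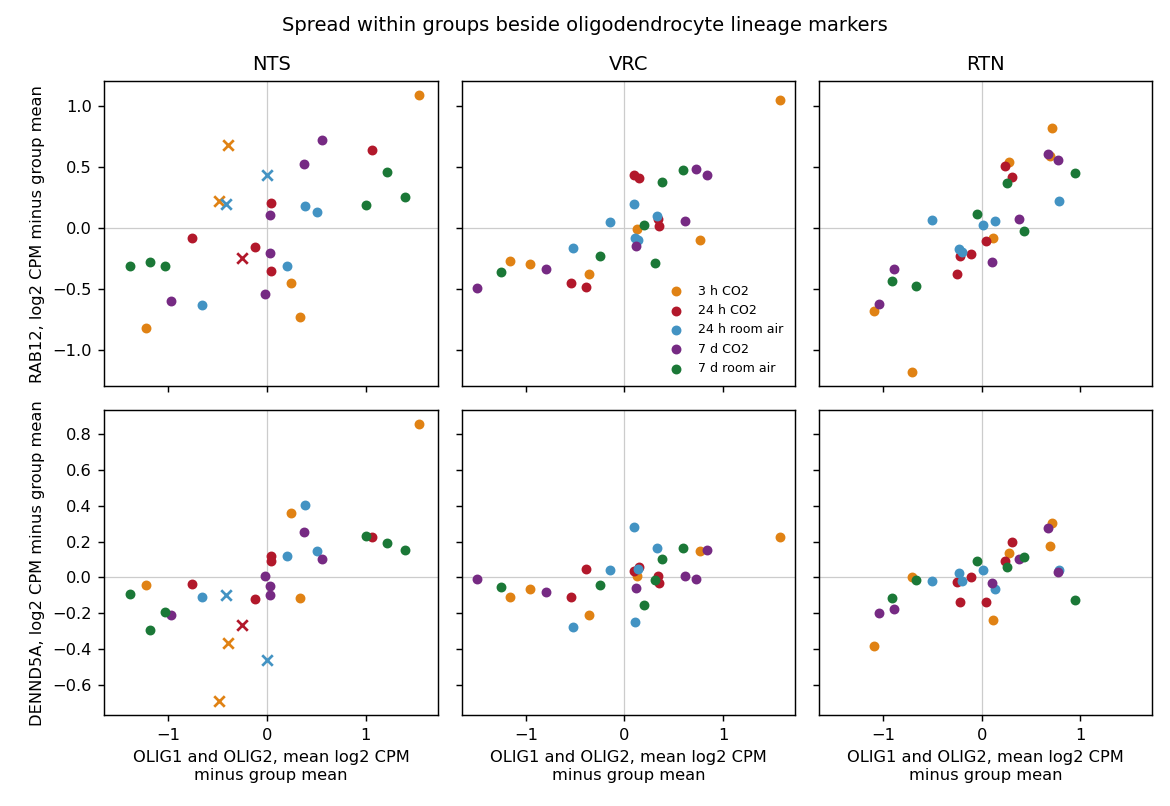
Mean log2 CPM of OLIG1 and OLIG2 (x axis) against log2 CPM of RAB12 (upper row, y axis) and DENND5A (lower row, y axis), each minus its group mean, by site and exposure. Crosses are the 5 NTS libraries that stood apart. RAB12 rises with the markers at all 3 sites, with r = 0.608 (NTS), 0.787 (VRC) and 0.839 (RTN).

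The genes most like each member were sought among the 237 other linked genes by Pearson's r of log2 CPM over the 90 libraries, a description that rests on differences between groups as well as within them. All these genes were themselves selected by the authors on these libraries. For RAB12 the closest was ZDHHC2, a palmitoyltransferase, at r = 0.89, which was also the highest of all 17729 genes compared. It was followed by EGLN1, the oxygen-sensing enzyme that hydroxylates hypoxia-inducible factors (0.87), the kinase AKT1 (0.86), AGPAT5, an acyltransferase of phospholipid synthesis (0.86), and OSGIN2 (0.86). For DENND5A the closest was RHOU, a small GTPase, at r = 0.82 and again first of all genes. Next came MARK3, a kinase that acts on microtubule-binding proteins (0.75), EIF4E3, a cap-binding protein (0.74), PPM1D, a phosphatase that dampens p53 signalling (0.69), and CCNY, a cyclin (0.68). MAP1LC3A had other neighbours: HCFC1R1 (0.81, first of all genes), UQCR11, a small subunit of respiratory complex III (0.80), AP2S1, the sigma subunit of the AP2 clathrin adaptor (0.78), PFDN6, a subunit of the prefoldin chaperone (0.76), and C15orf48 (0.76). No gene stood in more than 1 of these 3 groups of 5. The median r over all genes was -0.01 for DENND5A, -0.02 for RAB12 and 0.00 for MAP1LC3A.

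**Figure D5:**
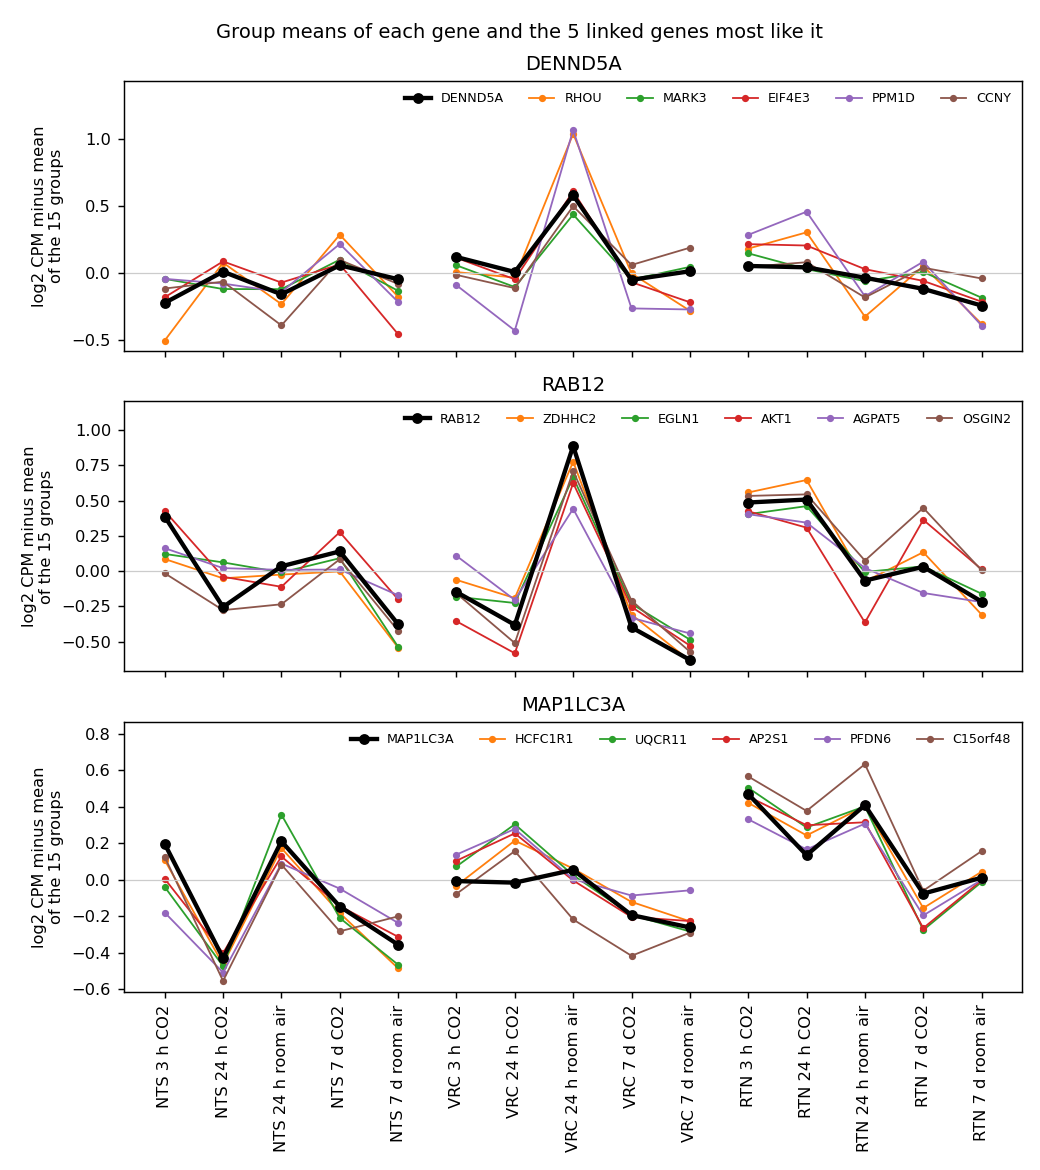
Mean log2 CPM of each group minus the mean of the 15 groups (y axis) by site and exposure (x axis), for each gene in black and the 5 linked genes most like it in colour. The neighbours of DENND5A and RAB12 peak with them in the VRC of 24 h room air, and those of MAP1LC3A dip with it in the NTS after 24 h of CO2.

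Few other genes of the lists drawn up for these pathways carried a symbol, so the pathways were seen only in part. Linked genes of traffic or lysosome that the lists leave out, such as RAB11FIP3, RAB11FIP4, TRAPPC12, SEC31B and ARSG, were not counted. Of 92 listed RAB proteins and regulators 2 were linked, DENND5A and RAB12 themselves. Of 56 listed autophagy genes 2 were linked, MAP1LC3A and ULK2, a kinase that starts autophagosome formation. Each of these genes has a symbol because the authors' tables list it, so its value in the comparison that lists it is given with no test. ULK2 is listed for the VRC at 24 h, where its log2 change was -0.69 (SE 0.15), and at 3 h, against the same room-air libraries, it was -0.63 (SE 0.14). In the other 7 comparisons ULK2 had adjusted p values of 0.687 to 0.999. MAP1LC3A had a log2 change of -0.07 in the VRC at 24 h. Of 61 listed lysosomal genes only MAN2B1, an alpha-mannosidase, was linked. It is listed for the NTS at 7 d, with a log2 change of -0.80 (SE 0.11), and it was the gene that edgeR called there. The replicate block called 0 genes there, but between exposures its numbers denote different goats, so it does not match that comparison. Of 94 listed genes of coats, sorting and fusion only AP2S1 was linked. It is listed for the NTS at 24 h, with a log2 change of -0.51 (SE 0.12). The median log2 change over all genes tested lay between -0.01 and 0.02 in the 9 comparisons.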

How the data were processed

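RNA of 90 goat brainstem punches was sequenced from SMART-Seq v4 and Nextera XT libraries as 100-bp pairs, per the labels' protocols. Per the submitters' processing notes the tools were edgeR 4.6, featureCounts 2.0.6, STAR 2.7.10b and fastp 0.24.0. No genome build is given in the sources used here. The authors deposited raw counts per Ensembl gene, and 0 columns of per-sample values were left out. Their deposited comparison tables hold log2 fold changes and log2 mean abundances, a likelihood ratio that is a score, and p-values with FDR, per the file headers.

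Symbols were linked by mean abundance in a likelihood ratio fit over all libraries (filterByExpr minimum count 5, 17730 genes kept, tolerance 1e-06). Of 342 deposited entries 341 matched exactly 1 gene and the other was taken by its own identifier. The RefSeq table of another source was used for names only.

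Tests ran on the counts with edgeR 4.0.16 under R 4.3.3 (TMM, filterByExpr, glmQLFit with legacy=FALSE and robust=TRUE, quasi-likelihood F test, Benjamini-Hochberg over all genes tested, threshold 0.05) on the libraries of a site and batch. Intervals are 95% confidence intervals of the log2 change, with a standard error that rests on the spread between goats. Alternatives used DESeq2 1.42.0, limma 3.58.1 voom, RLE factors, other filters, other libraries and the replicate number as a block. Log2 CPM used a prior count of 1. The fits were tested on simulated data. Each goat gave all 3 punches, so a number from 1 to 6 is 1 animal at every site: residuals of the same number correlated at over 0.1 in 83 of 90 pairs. Between exposures the numbers denote different animals.

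The members, lists and tests were chosen with earlier results of these data known. The named genes are the 3 members in every comparison, for each the 5 linked genes of highest r over the libraries, and every linked gene of the pathway lists, with linked cell type markers as levels. The planned search of promoters for motifs was not run, and no coordinates or sequences are given.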

Additional observations from a re-analysis of the deposited data

Results flagged for a closer look

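In each of 45 combinations of gene and group the most extreme of the 6 libraries was compared with the others, and 3 stood far from the rest. Chance gives this in about 1 of 20 groups. RAB12 in library 3 of the VRC after 3 h of CO2 was at 24.98 CPM, with the next library at 11.94 CPM. DENND5A in library 5 of the VRC after 7 d of CO2 was at 261.7 CPM, with the next at 236.6 CPM. MAP1LC3A in library 6 of the RTN of 7 d room air was at 233.5 CPM, with the next at 150.9 CPM.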

How the results depend on the processing

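No tested value of a member crossed 0.05 under any setting. The changes that chose the members kept their sign in every setting: leaving out 1 library gave -0.638 to -0.528 for DENND5A and -1.29 to -1.09 for RAB12 in the VRC at 24 h, and -0.745 to -0.512 for MAP1LC3A in the NTS at 24 h. Signs turned only for values near 0. DENND5A in the NTS at 3 h was 0.0139, and -0.00355 with no filter, -0.0891 by voom, -0.0325 with the replicate block and -0.203 to 0.116 without 1 library. MAP1LC3A in the NTS at 3 h was -0.0102, and 0.0704 by voom, 0.00735 without the 5 libraries that stood apart and -0.0812 to 0.119 without 1 library. Without 1 library MAP1LC3A also ranged from -0.00776 to 0.118 in the RTN at 3 h, from -2e-04 to 0.154 in the VRC at 7 d and from -0.175 to 0.0341 in the RTN at 7 d, where room-air library 6 turned the sign. The replicate block changed no member's call. Between exposures at most 4 of 6 pairs of the same number, which are different goats, correlated at over 0.1. Yet their median r, from 0.00816 (VRC, 24 h) to 0.128 (NTS, 3 h), was above that of unlike numbers in every comparison. The medians of unlike numbers were -0.00965 and -0.11 in those 2 comparisons. What the numbers share between exposures was not tested. Without 1 library r of DENND5A and RAB12 was 0.498 to 0.627 in the VRC, 0.6 to 0.778 in the RTN and 0.0572 to 0.424 in the NTS. Counts of called genes moved more than the members. At the NTS, VRC and RTN at 3 h they were 0, 2 and 2 by edgeR, 12, 125 and 17 by DESeq2, 1, 44 and 0 by voom and 3, 95 and 2 with the replicate block. At 24 h they were 0, 126 and 0 by edgeR, and 198, 272 and 8 by DESeq2. At 24 h in the NTS voom called 273, the replicate block 13, a likelihood ratio fit of the 90 libraries 250, and the fit leaving out those that stood apart 148. The last called 5 in the NTS at 3 h. In the VRC at 24 h 263 were called with the 12 libraries compared alone, 52 without the library under 10 M and 18 to 126 without 1 library. In the VRC at 3 h 180 were called without library 3 of CO2. At 7 d edgeR called 1, 0 and 0, DESeq2 71, 2 and 2, and the replicate block 0 in the NTS. The causes were not tested. The deeper genes carry less counting error: RAB12 had as few as 40 counts in a library.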

Other observations

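The same gene was also compared between 2 sites of the same goat, after the data were seen, as r of log2 CPM minus the group mean over 30 goats. No relation of 9 passed adjustment. DENND5A in the NTS and VRC came closest, with r = 0.445 (permutation p = 0.0476, adjusted p = 0.428), rho = 0.379 (permutation p = 0.0722, adjusted p = 0.325) and 0.422 without the 2 farthest goats, and with 0.463 in the first batch and 0.365 in the second. The median r over all genes was 0.285 between NTS and VRC, 0.254 between NTS and RTN and 0.251 between VRC and RTN. Between RTN and either other site r of DENND5A and RAB12 lay between -0.182 and -0.0751, and 88.4% to 94.7% of all genes had an r at least as high. RAB12 in the NTS and VRC had r of -0.0998 in the first batch and 0.928 in the second.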
